A study of Mus musculus with 12 samples.

Results

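The IL-6 family of cytokines and its signalling genes were described here through 9 genes, the rows of the series count table named Il6, Lif, Il11, Clcf1, Il6st, Osmr, Lifr, Stat3 and Socs3, out of 48709 genes in the table. All 9 passed the filter on low counts and were tested among 13702 genes. The cells were mouse embryonic fibroblasts of wild-type C57BL/6 embryos at E12.5 to E13.5, with no transgene or deletion in any group. Every library came from cells transfected with an siRNA, either a control siRNA or one against IMP2, the RNA-binding protein encoded by Igf2bp2. After 24 hours the medium was changed, and the cells were left unstimulated (siControl, siIMP2) or received 200 ng/mL IL-17 for 8 hours (siControl+IL-17, siIMP2+IL-17). Each of the 4 groups had 3 libraries: replicates 1 and 2 have titles starting with NA and replicate 3 a title starting with RB160, a naming that the labels do not explain. Nothing there says that libraries came from separate cultures or embryos, so p-values measure the spread between libraries only.

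IL-6 family cytokines signal through receptor complexes that share the subunit gp130, encoded by Il6st. Il6 and Il11 act through gp130 paired with their own binding receptors, whereas Lif and oncostatin M bring gp130 together with the LIF receptor (Lifr) or the oncostatin M receptor (Osmr). The receptors activate JAK kinases, which phosphorylate the transcription factor STAT3. STAT3 switches on Socs3, whose protein binds gp130 and JAKs and damps the signal. Fibroblasts are a known source of IL-6 and LIF, and Il6 is a textbook target of IL-17, through NF-kB and C/EBP factors.

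Exon counts per library totalled 33841054 to 44433699, so 1 CPM (the count relative to library size, scaled by TMM factors) stood for 31.9 to 50.9 reads. Igf2bp2 had 149 ± 17.1 CPM in siControl and 21.9 ± 3.01 in siIMP2, and 154 ± 13.5 against 23.6 ± 4.90 with IL-17 (SD, n = 3 each). More genes differed between the title sets than with either treatment, 69.5% of those tested, and the set was a term in every fit. All 10 fibroblast markers were measured, with a summed 10220 to 15886 TPM (a level scaled for transcript length and depth). Most of that was Col1a1 (2890 to 6013 TPM), Fn1 (2548 to 3911), Vim (2916 to 4742) and Col1a2 (863 to 1905). Lum (0 to 11.5 TPM), Thy1 (0.135 to 9.09), Dcn (0.655 to 98.5) and Pdgfra (0.796 to 48.0) were low in some libraries. With the IMP2 siRNA 6 of the 10 fell and 2 rose in unstimulated cells (median log2 change -0.53, all genes -0.00; 16.7% of all genes fell and 16.1% rose), and the part of this in the results below was not tested. Of 8 macrophage and leukocyte markers 7 were in the files and 3 were tested. Their summed level was 16.6 to 25.3 TPM in siControl, 26.3 to 27.7 in siControl+IL-17, 13.7 to 18.3 in siIMP2 and 14.7 to 23.5 in siIMP2+IL-17. Most of it was Cd14 (6.81 to 19.2 TPM) and Cd68 (5.32 to 9.68 TPM), while Adgre1 was at 0 and Ptprc at no more than 3 counts in every library. Endothelial markers summed to at most 0.639 TPM, epithelial ones to 6.26 and erythroid ones to 0.167.

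Promoter windows are printed for the members that held a match to a motif of factors named for this pathway, whether or not their levels moved. RefSeq windows of GRCm38.p6 were found for 8 of the 9 members, Clcf1 having none, and the 250 bases before each start were searched on both strands. The motifs were AP-1 (TGANTCA), C/EBP (TTGCNNAAT), STAT (TTCNNNGAA) and the NF-kB consensus. Among 32851 windows of the same length, 6.75% held AP-1, 2.11% C/EBP, 7.02% STAT and 3.90% NF-kB. The windows of Il6 (chr5:30012864-30013113, plus strand), Lif (chr11:4257318-4257567, plus strand), the downstream start of Il11 (chr7:4778142-4778391, minus strand) and Socs3 (chr11:117969367-117969616, minus strand) held at least 1 match each, printed in capitals and read in the direction of the gene.
Il6: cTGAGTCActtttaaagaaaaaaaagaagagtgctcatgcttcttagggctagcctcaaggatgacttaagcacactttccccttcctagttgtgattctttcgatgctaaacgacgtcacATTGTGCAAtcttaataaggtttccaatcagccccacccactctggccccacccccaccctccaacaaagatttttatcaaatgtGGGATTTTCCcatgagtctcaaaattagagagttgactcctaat
Lif: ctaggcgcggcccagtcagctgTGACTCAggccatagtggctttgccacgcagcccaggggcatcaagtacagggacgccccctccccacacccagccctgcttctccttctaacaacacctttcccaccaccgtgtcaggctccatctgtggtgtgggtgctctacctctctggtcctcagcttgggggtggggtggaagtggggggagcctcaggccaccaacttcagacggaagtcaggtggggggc
Il11: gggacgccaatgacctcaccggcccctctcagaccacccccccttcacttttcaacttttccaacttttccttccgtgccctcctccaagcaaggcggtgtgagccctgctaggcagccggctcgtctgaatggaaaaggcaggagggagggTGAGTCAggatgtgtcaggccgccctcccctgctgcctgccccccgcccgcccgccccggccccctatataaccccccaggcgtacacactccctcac
Socs3: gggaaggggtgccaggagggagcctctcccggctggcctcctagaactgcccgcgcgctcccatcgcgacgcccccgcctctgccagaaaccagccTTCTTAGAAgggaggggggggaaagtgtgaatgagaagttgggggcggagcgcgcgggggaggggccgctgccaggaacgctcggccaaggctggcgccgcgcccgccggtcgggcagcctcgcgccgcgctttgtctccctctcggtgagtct
From the start backwards, the Il6 window held an NF-kB match at bases 44 to 35, a C/EBP match at 129 to 121 and an AP-1 match at 249 to 243. The Lif window had 1 AP-1 match, at bases 228 to 222, and the Il11 window another, at 98 to 92. In the Socs3 window a STAT match lay at bases 154 to 146. The windows of Il6st, Osmr, Lifr (both starts) and Stat3, and that of the upstream start of Il11, held none of the 4. These are matches of letters and not measured binding sites. The starts are those of RefSeq. By the mm10 positions of the counted genes, the windows of Socs3 and Osmr lie wholly inside the gene. So do those of the downstream starts of Il11 and Lifr.

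On the length-scaled TPM of the deposited files, the receptor gene Il6st was the most abundant member in siControl (92.6 ± 49.4, SD, n = 3), followed by Lif (59.5 ± 32.9), Osmr (46.1 ± 10.9), Clcf1 (44.3 ± 6.90), Stat3 (40.0 ± 11.1) and Socs3 (35.4 ± 5.37). Lifr (8.28 ± 4.00), Il6 (8.26 ± 5.58) and Il11 (5.15 ± 3.51) were lowest. Among neighbours in that order the libraries overlapped everywhere except between Socs3 and Lifr. With IL-17 and the control siRNA, Lif was first at 125 ± 50.6 TPM and Il6 moved from eighth to sixth at 42.4 ± 3.71. In siIMP2 the order ran from Il6st (54.1 ± 30.6) through Clcf1 (50.9 ± 4.26) and Lif (37.3 ± 6.60) to Il6, last at 2.07 ± 0.798 TPM. In siIMP2+IL-17, Lif was first again (81.0 ± 3.77), without overlap with Clcf1 below it (53.2 ± 5.38).

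**Figure D1:**
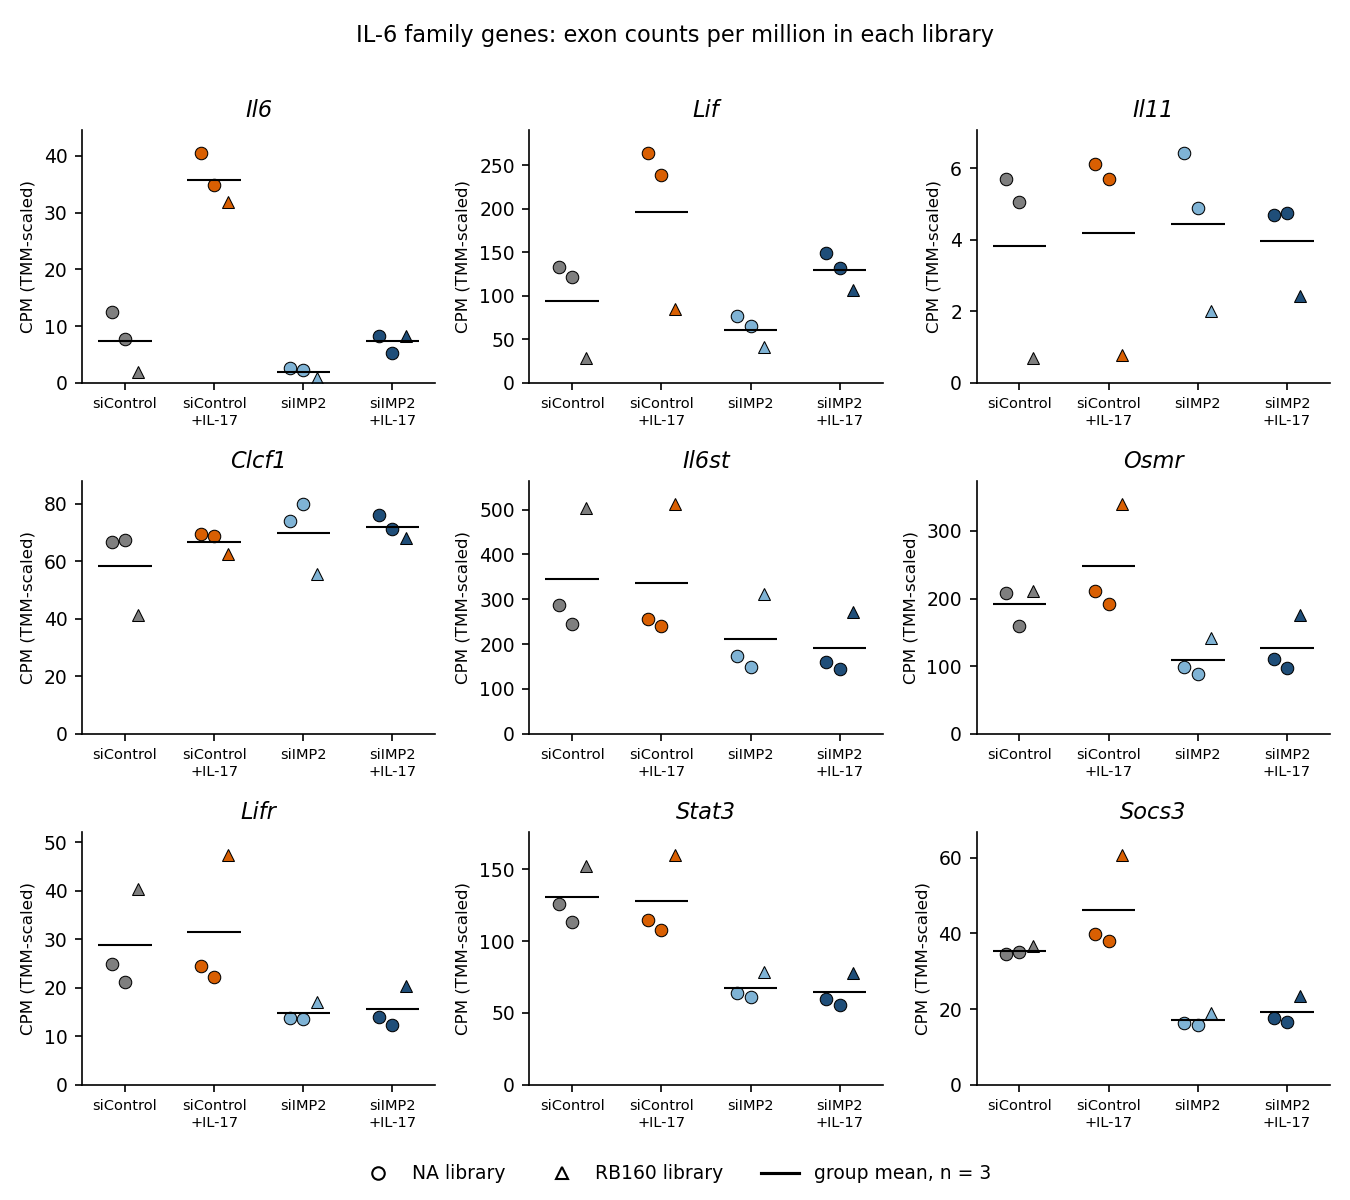
Exon CPM (TMM-scaled, linear axis from 0) of the 9 members in each of 12 libraries, by group. Circles are NA libraries, triangles RB160 libraries and bars group means (n = 3); Il6 is highest in all 3 siControl+IL-17 libraries (31.8 to 40.6), and Il6st, Osmr, Lifr and Stat3 have their lower means in the siIMP2 groups.

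With IL-17 the cytokine gene Il6 rose in cells with the control siRNA, Il6 and Lif rose when both siRNAs were averaged, and no other member passed. Il6, a cytokine gene (ENSMUSG00000025746, mm10 chr5:30013114-30019981, plus strand), had 12.45, 7.71 and 1.90 CPM in the siControl libraries (replicates 1, 2 and 3) and 40.6, 34.9 and 31.8 in siControl+IL-17. The groups did not overlap, and the RB160 library was the lowest of each. In siIMP2 its level was 2.54, 2.33 and 0.875 CPM, against 8.33, 5.30 and 8.22 in siIMP2+IL-17, again without overlap. With the control siRNA Il6 was 5.30-fold higher with IL-17 (log2 2.41 ± 0.38 SE, edgeR adjusted p = 0.0190), with a difference of 1.94 within the NA libraries and 4.03 within RB160. It was the 1 of 9 members that passed, where 0.423% of all genes did. The call of Il6 ended without siControl+IL-17 replicate 1 (edgeR adjusted p = 0.068), siControl replicate 2 (0.083) or siControl+IL-17 replicate 3 (0.084), and with a robust fit (0.125) or no title-set term (1). Over 10 other settings its edgeR, DESeq2 or limma-voom adjusted p ran from 1.49e-06 to 1.

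With the IMP2 siRNA, 0 of 9 members passed by edgeR (2 at an unadjusted p under 0.05, 1 by DESeq2 and 0 by limma-voom), where 0.511% of all genes did. The Il6 difference was 2.05 ± 0.47 (edgeR adjusted p = 0.0910; NA 1.43, RB160 3.16). It passed in the NA libraries alone (1.49, adjusted p = 0.0458), without siControl replicate 1 (0.046) or replicate 3 (0.00777), with no filter (3.69e-04) and by DESeq2 (0.0124), the other settings reaching up to 1. Averaged over both siRNAs, 2 of 9 members rose, against 2.72% of all genes. These were Il6, 4.69-fold (2.23 ± 0.30, edgeR adjusted p = 0.00172), and Lif, 2.20-fold (1.14 ± 0.18, 0.00519).

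Lif encodes leukaemia inhibitory factor, a ligand of the Lifr and gp130 pair (ENSMUSG00000034394, chr11:4257557-4272514, plus strand). Its level was 133, 122 and 28.8 CPM in siControl and 265, 240 and 85.4 in siControl+IL-17. Both RB160 libraries lay far below the NA ones, and the groups overlapped although the gain was 0.98 in NA and 1.57 in RB160. With the IMP2 siRNA Lif went from 76.3, 65.3 and 41.1 CPM to 149, 132 and 107, without overlap (NA 0.99, RB160 1.38). Neither difference passed by itself: 1.12 ± 0.26 (edgeR adjusted p = 0.112) with the control siRNA and 1.16 ± 0.26 (0.0910) with the IMP2 siRNA. Both passed in the NA libraries alone (edgeR adjusted p = 4.72e-04 and 4.26e-04) and with no filter on low counts (6.47e-04 and 3.62e-04), where the other settings ran up to 1. The first passed without siIMP2+IL-17 replicate 3 (0.016) and the second without siControl replicate 3 (0.00924). The averaged call of Lif ended with a robust fit (0.0526) or no title-set term (1), and held in all 12 fits that left out a library; the lowest p over its settings was 6.48e-07.

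The other ligand genes did not pass with IL-17. Il11 (ENSMUSG00000004371, chr7:4772373-4782857, minus strand), a cytokine gene that uses gp130 with its own receptor, had 5.71, 5.05 and 0.690 CPM in siControl and 6.11, 5.69 and 0.786 in siControl+IL-17, a difference of 0.12 ± 0.32. Clcf1, for cardiotrophin-like cytokine factor 1 (ENSMUSG00000040663, chr19:4214238-4223490, plus strand), had 66.7, 67.3 and 41.2 CPM against 69.3, 68.9 and 62.4. Its difference of 0.22 ± 0.10 (edgeR adjusted p = 0.451) came from the RB160 libraries (0.60, NA 0.05), and the groups overlapped. Clcf1 also overlaps Gm26115 on the other strand by 87 bases, a gene with 0 counts in every library.

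Among receptors and signalling genes the IL-17 differences were small. Osmr had 208, 160 and 211 CPM in siControl and 211, 192 and 341 in siControl+IL-17 (0.31 ± 0.12, edgeR adjusted p = 0.353). Only without siControl replicate 1 did that value pass among the 12 left-out libraries (0.50, edgeR adjusted p = 0.0418). Il6st differed by -0.06 ± 0.08, Lifr by 0.10 ± 0.12 and Stat3 by -0.04 ± 0.06. Socs3, the feedback inhibitor (ENSMUSG00000053113, chr11:117966079-117970047, minus strand), had 34.5, 35.2 and 36.6 CPM in siControl and 39.8, 37.9 and 60.8 in siControl+IL-17. These groups did not overlap. The share of all genes without overlap was not counted for the IL-17 comparisons, here or for Il6 and Lif. The Socs3 difference of 0.36 ± 0.10 missed the threshold (edgeR adjusted p = 0.174, NA 0.16, RB160 0.73). It passed with no filter on low counts (0.0369, with other settings up to 1). With the IMP2 siRNA, Osmr differed by 0.20 ± 0.12 (edgeR adjusted p = 0.831) and Socs3 by 0.15 ± 0.10 (0.878). Averaged over siRNAs, Socs3 had 0.25 ± 0.07 (0.0779) and passed by DESeq2 (0.0290) and with no filter (0.0188), and its other settings ran up to 1. The averaged value of Osmr was 0.26 ± 0.09 (0.147), which passed with no filter (0.0250) and without siControl replicate 1 (0.35, 0.00972), with other settings up to 1.

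**Figure D2:**
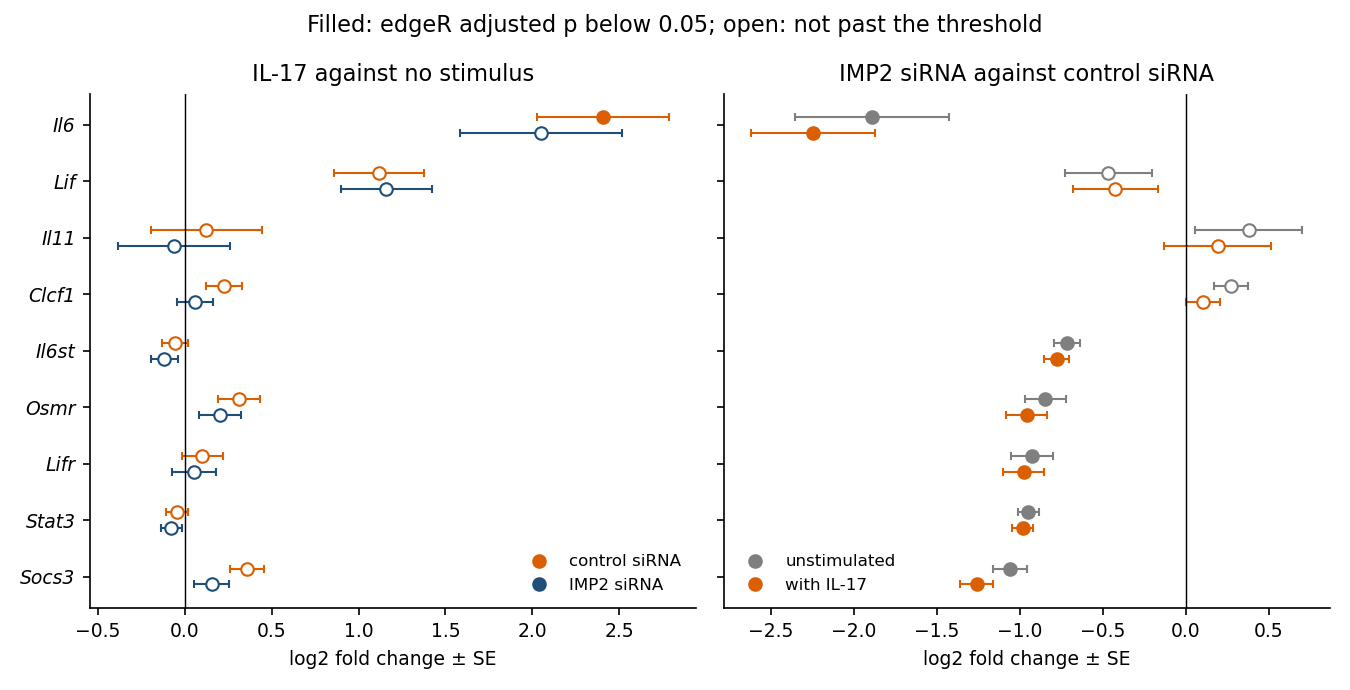
Log2 fold change ± SE (edgeR, 12 libraries) of each member with IL-17 (left, by siRNA) and with the IMP2 siRNA (right, by stimulus); filled points have an adjusted p below 0.05. Il6 and Lif lie to the right at 1.12 to 2.41 on the left panel, and on the right panel Il6, Il6st, Osmr, Lifr, Stat3 and Socs3 lie between -2.25 and -0.72.

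The IMP2 siRNA lowered 6 of the 9 members, the same 6 without and with IL-17: the cytokine gene Il6, the receptor genes Il6st, Osmr and Lifr, the transcription factor gene Stat3 and the inhibitor gene Socs3. Lower calls made up 16.7% of all tested genes in each comparison, higher calls 16.1% without and 16.7% with IL-17, and both directions together 32.9% and 33.4%. The members' median log2 change was -0.85 in unstimulated and -0.96 in IL-17-treated cells, and that of all tested genes -0.00 and -0.01. Both comparisons have the title-set term behind them. Without that term 2 members, Stat3 and Socs3, passed in each, and the other 4 did not (adjusted p from 0.0709 to 0.468), although their log2 values were close to those with the term. In these bulk RNA samples fewer cells that express a gene and less of its RNA per cell cannot be told apart.

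Il6 showed the widest change among the 9. In unstimulated cells its siControl libraries (1.90 to 12.45 CPM) overlapped those of siIMP2 (0.875 to 2.54), since the RB160 control library was low. It fell by 1.89 ± 0.47 on the log2 scale, or 3.71-fold (edgeR adjusted p = 0.00762; NA -1.99, RB160 -1.08). With IL-17 the groups stood apart, 31.8 to 40.6 CPM against 5.30 to 8.33. There Il6 fell by 2.25 ± 0.37, or 4.75-fold (5.69e-04; NA -2.49, RB160 -1.95). The mean of siIMP2+IL-17, 7.28 ± 1.72 CPM, was close to that of unstimulated siControl, 7.35 ± 5.28 (SD, n = 3 each). These groups differ in both treatments, and the fits made here did not test them against each other. The authors' deposited comparison named Imp2 siRNA+ IL-17 vs. Mock gives Il6 a log2 change of 2.56e-04, which did not pass. The summed macrophage and leukocyte markers of siControl+IL-17 (26.3 to 27.7 TPM) also lay above those of siIMP2+IL-17 (14.7 to 23.5), and their part in the result was not tested.

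The ligand genes other than Il6 did not fall in the pooled libraries. Lif had 133, 122 and 28.8 CPM in siControl and 76.3, 65.3 and 41.1 in siIMP2, so that both NA libraries were lower with the IMP2 siRNA and the RB160 library was higher. The pooled difference was -0.47 ± 0.26 (edgeR adjusted p = 0.196) without and -0.42 ± 0.26 (0.230) with IL-17. In the NA libraries alone Lif fell by 0.86 and 0.85 (edgeR adjusted p = 4.77e-05 and 4.52e-05), where other settings reached 0.653 and 0.672. Leaving out the RB160 siControl library (-0.81, edgeR adjusted p = 0.00883, unstimulated) or the RB160 siIMP2+IL-17 library (-0.81, 0.0149, with IL-17) also made a pass. Averaged over stimuli Lif had -0.44 ± 0.19 (0.0637), which passed without any 1 of the 4 RB160 libraries (edgeR adjusted p from 0.00178 to 0.0461). It also passed in the NA libraries alone (1.23e-06), with no filter (0.00817) and with unique gene reads, in exons and outside them (0.0481). Its other settings ran up to 0.335. Il11 was 6.43, 4.87 and 2.01 CPM in siIMP2 and 4.68, 4.73 and 2.43 in siIMP2+IL-17, differences of 0.38 ± 0.32 and 0.19 ± 0.32 that did not pass.

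Clcf1 was the 1 member that rose with the IMP2 siRNA averaged over stimuli, and Il11 also had values above 0 in both comparisons, without a pass. Clcf1 had 74.0, 80.1 and 55.6 CPM in siIMP2 and 76.0, 71.4 and 68.0 in siIMP2+IL-17, and the groups overlapped the controls in both comparisons. The differences were 0.27 ± 0.10 (edgeR adjusted p = 0.0585) and 0.10 ± 0.10 (0.466). The first passed without siControl replicate 1 or 2, siControl+IL-17 replicate 3 or siIMP2+IL-17 replicate 3 (edgeR adjusted p from 0.0335 to 0.0495). It also passed by DESeq2 (0.0403), in the NA libraries alone (0.0435) and with no filter (0.0189), and other settings ran up to 0.571. Averaged over stimuli, where 49.5% of all genes passed and 7 of 9 members did, Clcf1 rose 1.14-fold (0.19 ± 0.07, edgeR adjusted p = 0.0460). Leaving out siControl replicate 3, siControl+IL-17 replicate 1 or 2, siIMP2 replicate 1 or 2, or siIMP2+IL-17 replicate 1 or 3 ended that call (adjusted p from 0.060 to 0.132). So did upper-quartile factors (0.0530), a robust fit (0.0527), unique gene reads (0.312) and no title-set term (0.415), in a range over settings from 0.0129. Unique gene reads also take in reads outside exons, and for Clcf1 those were 34.3% to 45.2% of gene reads. In that setting the kind of read and the mapping changed together.

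All 3 receptor genes fell. Il6st, for the shared subunit gp130 (ENSMUSG00000021756, chr13:112464070-112510086, plus strand), had 288, 245 and 505 CPM in siControl and 173, 149 and 311 in siIMP2. With IL-17 it had 257, 240 and 514 CPM against 160, 145 and 272. The RB160 libraries were the highest of every group, so the groups overlapped, while each set moved alike: -0.72 in NA and -0.70 in RB160 without IL-17, -0.71 and -0.92 with it. Il6st fell by 0.72 ± 0.08 (1.64-fold, edgeR adjusted p = 2.31e-05) and by 0.78 ± 0.08 (1.72-fold, 1.23e-05).

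Osmr (ENSMUSG00000022146, chr15:6813577-6874969, minus strand), which pairs with gp130 to bind oncostatin M, had 208, 160 and 211 CPM in siControl and 98.7, 89.0 and 142 in siIMP2. With IL-17 the values were 211, 192 and 341 against 110, 97 and 176. No siIMP2 library reached a control library in either comparison. The falls were 0.85 ± 0.12 (1.80-fold, edgeR adjusted p = 2.23e-04) and 0.96 ± 0.12 (1.94-fold, 8.11e-05). Lifr (ENSMUSG00000054263, chr15:7129559-7197489, plus strand) went from 25.0, 21.2 and 40.5 CPM to 13.8, 13.5 and 17.0, and with IL-17 from 24.5, 22.3 and 47.5 to 14, 12.4 and 20.4. Its groups did not overlap either, and it fell by 0.93 ± 0.12 (1.90-fold, 1.22e-04) and 0.98 ± 0.12 (1.97-fold, 7.72e-05).

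Stat3 (ENSMUSG00000004040, chr11:100885098-100939540, minus strand), the transcription factor of the pathway, was the member with the smallest p. Its level was 126, 113 and 153 CPM in siControl against 63.7, 60.9 and 78.3 in siIMP2. With IL-17 the levels were 115, 108 and 160 against 59.5, 55.6 and 78.2, without overlap in either comparison. Stat3 fell by 0.95 ± 0.06 (1.93-fold, edgeR adjusted p = 5.49e-07; NA -0.94, RB160 -0.96) and by 0.98 ± 0.06 (1.98-fold, 4.66e-07; NA -0.95, RB160 -1.04). Stat5a lies on the opposite strand and overlaps Stat3 by 72 bases, and the use of strand in counting is not given in the sources used here, so reads in that stretch cannot be assigned with certainty.

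Socs3 was lowered most after Il6. It had 34.5, 35.2 and 36.6 CPM in siControl and 16.4, 15.9 and 19.1 in siIMP2, and with IL-17 39.8, 37.9 and 60.8 against 17.6, 16.5 and 23.3. Every siIMP2 library lay below every control library. Socs3 fell by 1.06 ± 0.10 (2.08-fold, edgeR adjusted p = 9.39e-06; NA -1.11, RB160 -0.94) and by 1.26 ± 0.10 (2.40-fold, 2.50e-06; NA -1.19, RB160 -1.38). Of the 9 members, 4 (Osmr, Lifr, Stat3 and Socs3) had every siIMP2 library below every control library in both comparisons, as 6.06% of all tested genes did. The 6 falls passed in all 12 fits that left out a library, in both comparisons.

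In the authors' deposited table the comparison named Imp2 siRNA vs. Mock gives Il6 a log2 change of -1.93 (FDR p = 0.00482), Stat3 -0.94 (0.00354) and Socs3 -1.04 (0.00635). The authors' deposited table lists Osmr at -0.81 (0.277), Lifr at -0.96 (0.246) and Il6st at -0.71 (1.00) there, sizes near those above with FDR values that did not pass.

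No difference between the IL-17 responses with and without IMP2 siRNA was found for any member. By edgeR 0 of 13702 genes passed (152 at an unadjusted p under 0.05, of which 0 were members; 0 by DESeq2 and 0 by limma-voom), a background of 0%. The difference of log2 responses, IMP2 siRNA minus control siRNA, was -0.35 ± 0.61 for Il6 (95% interval -1.67 to 0.96), 0.04 ± 0.36 for Lif (-0.75 to 0.83) and -0.20 ± 0.14 for Socs3 (-0.51 to 0.10). Without siControl replicate 3 the Il6 value turned sign, to 0.10. The Il6 interval takes in values on both sides of 0. A miss of the threshold does not show that the responses were alike.

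The title sets differed in the levels of 8 of 9 members, where 69.5% of all genes differed. Il6st (0.94 ± 0.06), Lifr (0.71 ± 0.09), Osmr (0.58 ± 0.09), Stat3 (0.41 ± 0.05) and Socs3 (0.36 ± 0.07) were higher in RB160 libraries, with edgeR adjusted p from 1.36e-08 to 6.43e-04. The cytokine genes Il11 (-1.92 ± 0.27), Lif (-1.16 ± 0.21) and Clcf1 (-0.35 ± 0.08) were lower there (2.65e-05, 2.29e-04 and 0.00127). Il6 had -0.66 ± 0.31 (0.0745) and did not pass, except without siIMP2+IL-17 replicate 2 (-0.80, 0.0300) or replicate 3 (-1.02, 0.0110). Set and any shared batch of handling cannot be told apart, since the labels give no more than the title.

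**Figure D3:**
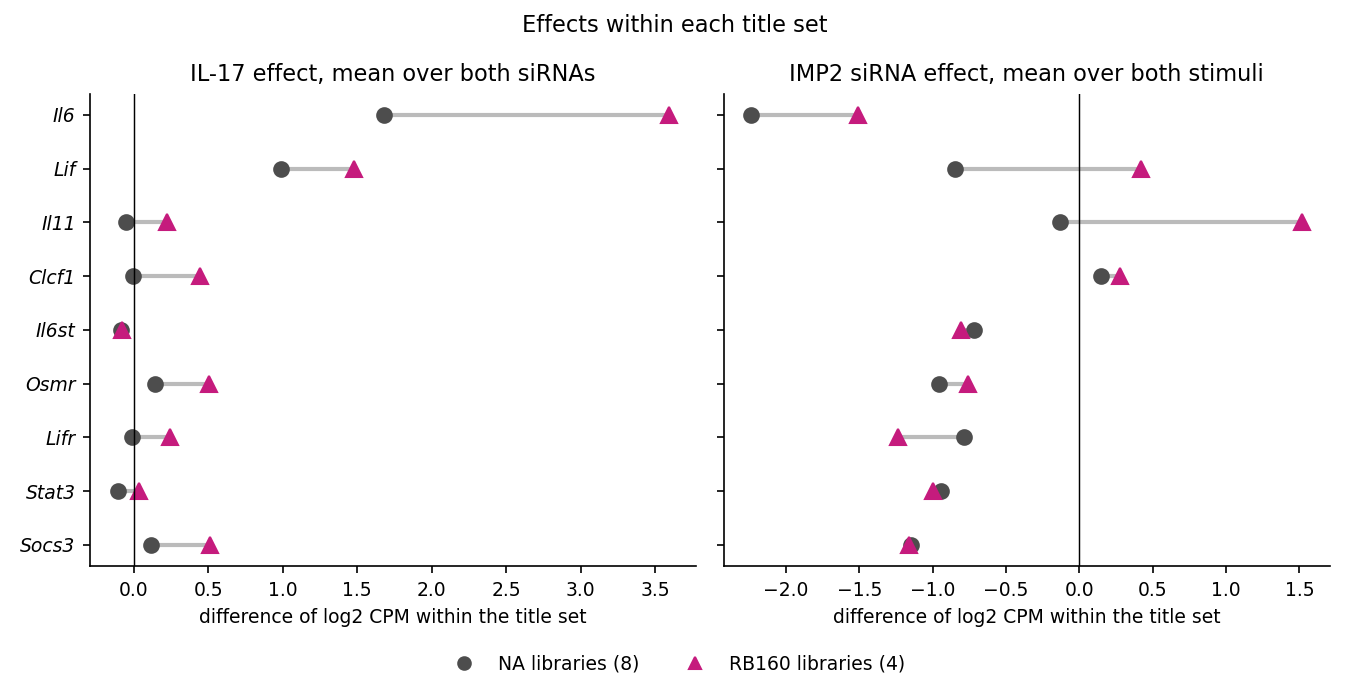
Differences of log2 CPM (prior count 2) within the 8 NA libraries (circles) and the 4 RB160 libraries (triangles) for IL-17 (left, mean over both siRNAs) and the IMP2 siRNA (right, mean over both stimuli). Il6 sits at 1.68 in NA and 3.59 in RB160 on the left, and Lif at -0.85 and 0.42 on opposite sides of 0 on the right.

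The sets also differed in how some members responded. The IL-17 response differed by set for 2 of 9 members (0.307% of all genes): Il6, by 2.01 ± 0.32 more in RB160 (edgeR adjusted p = 0.0235), and Clcf1, by 0.45 ± 0.08 more (0.0380). RB160 has 1 library in each group, and leaving any of these 4 out, or siControl+IL-17 replicate 2, ended the Il6 call (adjusted p from 0.061 to 0.946). That of Clcf1 ended in 9 of 12 such fits (up to 1). The IMP2 siRNA effect differed by set for 3 members (6.58% of all genes). Lif differed by 1.26 ± 0.11 (edgeR adjusted p = 6.72e-05), since it was lower with the IMP2 siRNA within the NA libraries (-0.85) and higher within RB160 (0.42), and passed in all 12 fits that left out a library. Il11 differed by 1.73 ± 0.24 (0.00140), from -0.13 in NA to 1.52 in RB160, where the level was 0.690 CPM in siControl and 2.01 in siIMP2, and 0.786 and 2.43 with IL-17. Its call ended without the RB160 siControl+IL-17 (0.0991) or siIMP2+IL-17 library (0.100). Lifr differed by -0.44 ± 0.11 (0.0361), a call that ended in 8 of 12 fits (up to 0.397). Igf2bp2 itself fell less in RB160, by 0.55 ± 0.14 (0.0312), and the part of that in these differences was not tested.

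Reads that fell in a gene but outside its exons, such as in introns, were counted as the deposited gene reads less the exon reads, and came to 4.49% to 6.42% of gene reads per library. For Clcf1 they were 34.3% to 45.2% of its gene reads, against a median of 6.24% over 11331 genes with at least 100 reads per library on average. A share as high as that of Clcf1 was held by 4.29% of these genes. Il11 had 16.3% to 39.4% (15 to 57 reads), Lif 6.13% to 9.87%, Osmr 6.30% to 9.05% and Il6 5.39% to 12.47%. Stat3 (2.53% to 5.84%), Lifr (1.91% to 4.55%), Il6st (0.841% to 2.26%) and Socs3 (0.494% to 1.96%) had smaller shares. Socs3 had only 4 to 35 such reads per library, Il6 3 to 187 and Lifr 9 to 78, which limits what can be seen for them.

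With IL-17 and the control siRNA, 1 of 9 members, Il6, rose in reads outside exons, where 0.225% of 12463 genes passed. It had 32, 16 and 5 such reads in siControl and 91, 68 and 187 in siControl+IL-17, a change of 2.31 ± 0.35 (edgeR adjusted p = 0.00295). Leaving out the RB160 siControl library ended the call (1.62, 0.0582). Lif had 532, 351 and 102 reads against 943, 791 and 322 (0.89 ± 0.20, 0.0560), and passed in the NA libraries alone (0.00178), with no filter (4.94e-12) and with the scaling of the exon counts (0.00405), but not with RLE factors (0.0608). Without siControl replicate 1, siControl+IL-17 replicate 3, siIMP2 replicate 2 or 3, or siIMP2+IL-17 replicate 3 it also passed (0.00904 to 0.045). With the IMP2 siRNA 0 of 9 passed by edgeR (2 at an unadjusted p under 0.05), where 0.112% of genes did. There Il6 had 2.23 ± 0.53 (0.109) and Lif 1.00 ± 0.22 (0.0696). Il6 passed without siControl replicate 3 (0.0156), with no filter (7.71e-07) and with the scaling of the exon counts (0.0260), its other settings reaching 0.813. Lif passed in 3 of 4 other settings (edgeR adjusted p from 1.35e-12 to 0.0777) and without siControl replicate 1 or 3, siControl+IL-17 replicate 1 or 3, siIMP2 replicate 3 or siIMP2+IL-17 replicate 2 (0.014 to 0.048).

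The IMP2 siRNA lowered the reads outside exons of 6 of 9 members in unstimulated cells (10.8% of genes called, 4.89% lower) and of 5 with IL-17 (10.7%, 4.67% lower). Osmr (-0.71 ± 0.13 and -0.95 ± 0.13), Il6 (-1.83 ± 0.58 and -1.92 ± 0.32), Socs3 (-1.36 ± 0.40 and -1.81 ± 0.34), Lif (-0.82 ± 0.22 and -0.71 ± 0.20) and Il6st (-0.53 ± 0.16 and -0.51 ± 0.15) fell in both, with edgeR adjusted p from 1.2e-05 to 0.0398. Lifr fell without IL-17 (-1.10 ± 0.30, 0.0168) and had -0.67 ± 0.29 (0.153) with it. Lif thus passed in pooled reads outside exons and not in exon counts. For Lif the difference between the kinds of read did not pass (0.30 ± 0.12, 0.194, and 0.23 ± 0.10, 0.264). Its fall outside exons lay in the NA libraries, with 532 and 351 reads in siControl against 214 and 191 in siIMP2. With IL-17 these were 943 and 791 against 405 and 354. The RB160 libraries, 1 per group, had 102 against 135 reads, and 322 against 317 with IL-17. Relative to each library's total of reads outside exons, Lif was higher with the IMP2 siRNA in both RB160 comparisons. Stat3 had 120, 118 and 191 reads outside exons in siControl and 95, 114 and 168 in siIMP2, groups that overlap. Its change there was -0.31 ± 0.13 (edgeR adjusted p = 0.136), and with IL-17 -0.33 ± 0.12 (0.0948; 0.048 without siControl+IL-17 replicate 1).

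Of these falls, that of Osmr in unstimulated cells and those of Il6, Osmr and Socs3 in IL-17-treated cells passed in all 12 fits that left out a library. In unstimulated cells leaving out siIMP2 replicate 2 kept only Osmr. The calls of Il6 and Socs3 each ended in 5 fits (without siControl replicate 1 or 2 or siIMP2 replicate 1, 2 or 3; adjusted p up to 0.344 and 0.107). Those of Il6st (without siControl replicate 1 or siIMP2 replicate 1, 2 or 3), Lif (siControl replicate 1 or siIMP2 replicate 1 or 2) and Lifr (siControl replicate 3 or siIMP2 replicate 2 or 3) ended with edgeR adjusted p up to 0.155, 0.1503 and 0.119. With IL-17, Il6st lost its call without siControl+IL-17 or siIMP2+IL-17 replicate 2 or 3 (up to 0.456) and Lif without replicate 1 or 2 of either group (up to 0.131). In the NA libraries alone Lifr (-1.005, 0.118) and Socs3 (-1.30, 0.0883) did not pass in unstimulated cells, nor Il6st with IL-17 (-0.20, 0.620). Scaled by the totals and factors of the exon counts, Il6st (edgeR adjusted p = 0.185 and 0.144) and, in unstimulated cells, Socs3 (0.0685) did not pass.

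**Figure D4:**
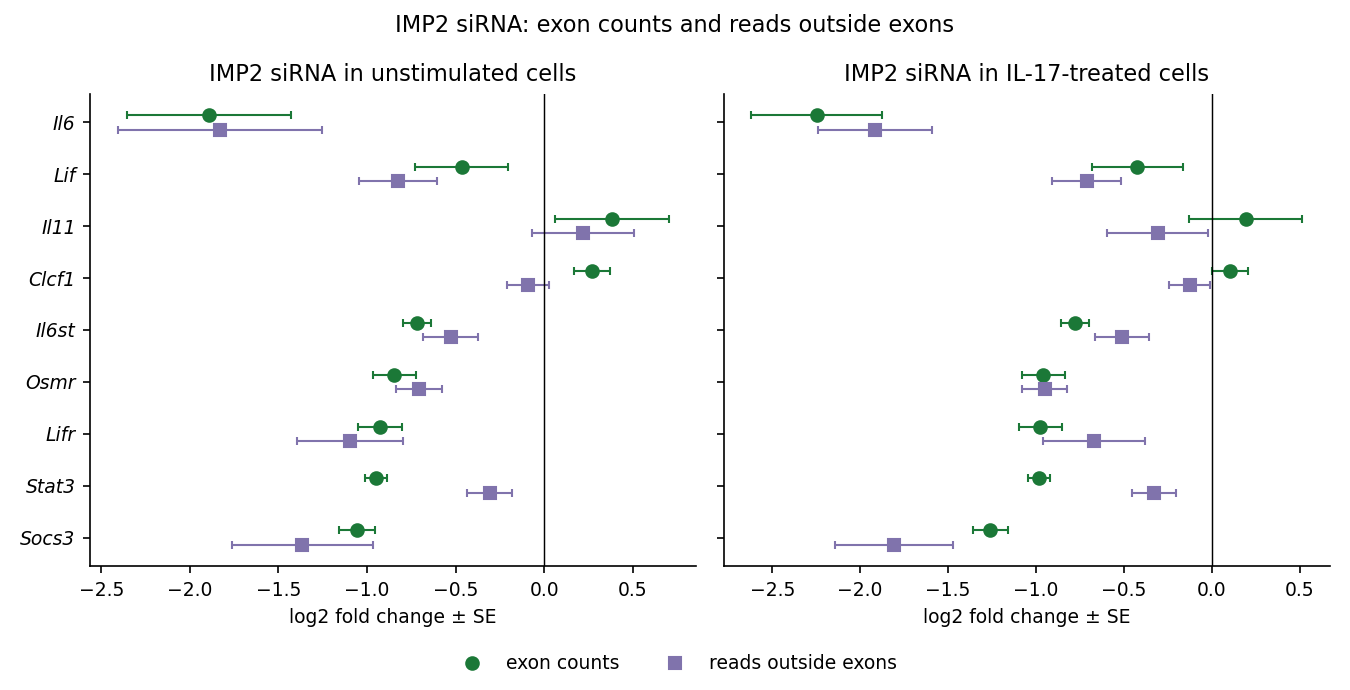
Log2 fold change ± SE with the IMP2 siRNA for exon counts (circles) and reads outside exons (squares) of each member, in unstimulated (left) and IL-17-treated cells (right). Stat3 lies at -0.95 and -0.98 in exon counts and at -0.31 and -0.33 outside exons, while Osmr lies at -0.85 and -0.96 against -0.71 and -0.95.

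Exon counts and reads outside exons were set against each other in 1 model over 11508 genes. Stat3 fell more in exons than outside them with the IMP2 siRNA, by 0.65 ± 0.13 in unstimulated cells (edgeR adjusted p = 0.00174) and by 0.66 ± 0.13 with IL-17 (0.00106). Both differences passed in all 12 fits that left out a library and in the NA libraries alone. Clcf1 moved the other way in unstimulated cells, with exons higher by 0.36 ± 0.10 relative to reads outside them (0.0335), and had 0.23 ± 0.10 (0.248) with IL-17. That call ended without siControl replicate 1 or 3 or siIMP2 replicate 1 or 2 (adjusted p from 0.12 to 0.242). Such differences passed for 2 of 9 members without IL-17 (2.98% of genes) and 1 of 9 with it (2.68%); the IL-17 responses gave 0 of 9 with each siRNA (0 with the control siRNA and 1 with the IMP2 siRNA at an unadjusted p under 0.05), where 0.0521% and 0.0434% of genes passed. Stat5a, on the other strand at the Stat3 locus, fell by 1.25 ± 0.23 in reads outside exons in unstimulated cells and by 1.16 ± 0.21 with IL-17, and its exon-against-outside differences were 0.14 ± 0.22 and -0.05 ± 0.20.

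Other genes of the pathway were read from lists chosen by function. Of 9 further ligand genes or partners 4 were tested, and the remaining 5 (Osm, Il27, Ebi3, Il12a and Il31) had at most 3 counts in any library. Of the 4, 1 rose with the IMP2 siRNA without IL-17 and 3 rose with it, among the latter Cntf (0.75, edgeR adjusted p = 0.0422) and Crlf2 (0.27, 0.0246), a receptor subunit for TSLP placed in this list. Of all tested genes 16.1% and 16.7% rose. The median change of the 4 was 0.19 without and 0.28 with IL-17, against -0.00 and -0.01 over all genes.

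Of 9 further receptor and sheddase genes 7 were tested, 4 of which fell and 1 rose with the IMP2 siRNA in unstimulated cells, and 3 fell with IL-17. Of all tested genes 16.7% fell and 16.1% rose without IL-17, and 16.7% fell with it. Adam17, the protease that releases membrane receptors such as the IL-6 receptor, fell by 0.57 and 0.62 (edgeR adjusted p = 1.4e-05 and 6e-06). The IL-6 receptor gene Il6ra, at a median of 3.58 TPM, fell by 0.45 and 0.49 (0.00604 and 0.00305), and the IL-11 receptor gene Il11ra1 by 0.61 and 0.49 (0.00352 and 0.0130). Cntfr rose by 0.67 (0.0245) without IL-17. The list's median was -0.57 and -0.49, against -0.00 and -0.01 over all genes.

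Among 22 tested genes of 23 for JAK kinases, other STATs and inhibitors, 10 fell and 2 rose without IL-17, and 10 fell and 3 rose with it, with list medians of -0.09 and -0.15 (all genes -0.00 and -0.01). The shares of all tested genes were 16.7% lower and 16.1% higher without IL-17, and 16.7% each way with it. Stat5a fell by 1.12 and 1.15 (edgeR adjusted p = 1.4e-05 and 1.06e-05) and Jak3 by 0.81 and 0.68 (2.92e-04 and 0.00104). The phosphatase gene Ptpn11 rose by 0.20 and 0.17 (0.00546 and 0.0125), and Socs7 by 0.29 and 0.18 (0.00462 and 0.0490). Pias4 rose with IL-17 present (0.26, 0.0281). Averaged over siRNAs, IL-17 raised Cish, an inhibitor of the Socs family (0.34, 0.0130), and Tyk2, a JAK kinase gene (0.22, 0.0193).

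Of 24 genes known as STAT3 targets 21 were tested, among them the members Osmr, Socs3 and Stat3. With the IMP2 siRNA 12 fell and 3 rose without IL-17, and 14 fell and 3 rose with it, where 16.7% of all tested genes fell in each comparison and 16.1% and 16.7% rose. The list medians were -0.60 and -0.72, against -0.00 and -0.01 over all genes. Beyond the members, Bcl3, an atypical IkB protein gene, had the smallest p among the falls, at -1.43 (edgeR adjusted p = 2.7e-05) and -1.20 (5.98e-05). Against that direction, the survival genes Bcl2l1 (0.37, 6.59e-04, and 0.30, 0.00285) and Mcl1 (0.15, 0.0481, and 0.17, 0.0273) rose, as did the angiogenic factor gene Vegfa (0.53, 0.00104, and 0.50, 0.00153). IL-17 raised Bcl3 with the control siRNA (0.87, 0.0238) and with the IMP2 siRNA (1.101, 0.0101). It raised Vegfa (0.50, 0.0466) with the control siRNA and Cebpd (1.38, 0.0381) with the IMP2 siRNA. All these comparisons share their control libraries, so their values stand side by side and are not independent of each other.

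The genes whose pattern lay closest to a member were found by the root-mean-square difference of log2 CPM, centred within each title set, over 12 libraries and 11075 genes. For Il6 (own root-mean-square deviation 1.62) they were Cxcl1 (0.56), Ccl2 (0.59), Ccl7 (0.64) and Mt2 (0.69), that is, a set of chemokine genes and a metallothionein gene. For Lif (0.70) they were Cxcl16 (0.19), Gm5345 (0.25), Syt7 (0.29) and Tbx3 (0.31). Socs3 (0.60) lay nearest to Stat5a (0.09), Plpp3 (0.10), Tmem176a (0.14) and Xdh (0.15). Il11 (0.46), a low-count gene, lay nearest to Pkp1 (0.15), Cpne4 (0.15), C3ar1 (0.17) and Htr2a (0.17).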

How the data were processed

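RNA of 12 libraries, 3 in each of 4 groups, was sequenced from mouse embryonic fibroblasts. The deposited counts are whole-number reads per gene in exons, not normalised, from paired and trimmed reads per the file headers. Per the submitters' processing notes the reads were placed on mm10. Which aligner and counter were used, and whether strand was, is not given in the sources used here, so reads of overlapping genes are uncertain. The TPM values were made by the authors and deposited beside the counts, and served for levels between genes. Log2 fold changes were deposited by the authors for several contrasts, and the deposited FDR p-values belong to the same contrasts, per the file headers, with a model that is not stated. The CPM and RPKM columns were not used, and 0 per-sample count columns were left over. Reads outside exons were the deposited total gene reads less exon reads.

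Counts were fitted with edgeR 4.0.16 (R 4.3.3) by its quasi-likelihood test, with TMM factors, filterByExpr (minimum count 10, minimum total 15), terms for group (4 levels) and title set, all 12 libraries, Benjamini-Hochberg adjustment over all tested genes and a threshold of 0.05. Errors beside log2 changes are standard errors, and log2 CPM used a prior count of 2. Reads outside exons were fitted in the same way, and exons against reads outside exons in 1 joint model. Replicates were numbered by accession, and the numbers were not used to pair libraries. Named genes were the 9 members, up to 3 called genes of smallest p per list, direction and comparison (genes of these lists that met the rule but are not reported here still enter the lists' counts and medians), the 4 genes most like Il6, Lif, Il11 and Socs3, and Igf2bp2. Members and lists were chosen with earlier results of these data known. Alternatives were RLE and upper-quartile factors, other filters, a fit without the title set, only NA libraries, a robust fit, unique gene reads, limma-voom (limma 3.58.1), DESeq2 1.42.0, the exon scaling for reads outside exons, and each library left out. Unique gene reads are the deposited reads that map only to the gene, in its exons and outside them. The NA libraries alone, for reads outside exons and for exons against them, were chosen after the data had been seen. The fits of exon counts, reads outside exons and both together were tested on simulated data. Tables and figures came from Python 3.11.15, pandas 2.3.3 and matplotlib 3.10.9.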

Additional observations from a re-analysis of the deposited data

Results flagged for a closer look

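Of the 9 members, 5 responded differently in the NA and RB160 libraries, by separate tests for IL-17 and for the siRNA (edgeR, the sets' terms crossed with each). The IL-17 test was passed by 0.307% of all genes and the siRNA test by 6.58%. The IL-17 response was larger in RB160 by 2.01 on the log2 scale for Il6 and by 0.45 for Clcf1. The IMP2 siRNA effect was higher in RB160 by 1.26 for Lif and by 1.73 for Il11. The level of Lif was lower with the IMP2 siRNA in NA libraries and higher in RB160 ones. For Lifr the IMP2 siRNA effect differed by -0.44 in RB160, and its level was lower with that siRNA in both sets. RB160 holds 1 library per group, and leaving out single libraries ended each of these calls except that of Lif.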

How the results depend on the processing

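No paired analysis was made, since the labels give no replicate numbers that the groups share. The NA titles do run through the 4 groups in the same order in replicate 1 and in replicate 2. Whether these were matched runs is not stated, and no fit had a term for it. Replicate 1 was above replicate 2 in all 4 groups for 6 of 9 members and for 9.62% of all genes, and the part of this in the results was not tested. Values for IL-17 follow in the order control siRNA, IMP2 siRNA, average. With no filter beyond 1 count 221, 179 and 674 genes and 3, 2 and 4 members passed, and 5 members differed by title set in their IL-17 response. With no title-set term 1, 2 and 4 genes and 0, 0 and 0 members passed, and for the IMP2 siRNA 321 genes without IL-17, 327 with it and 1666 on average, 2 members each in the first and second. In the NA libraries alone 2 members passed with each siRNA, and 46 (IMP2 siRNA) and 199 (average) genes. A robust fit left 0 members with the control siRNA and 1 on average. DESeq2 called 197, 170 and 651 genes, and 1 member with the IMP2 siRNA. In reads outside exons IL-17 gave 2 and 2 members with exon scaling, 2 and 2 with no filter, and 2 and 1 in the NA libraries alone. Exons against reads outside exons gave 2 members for the IMP2 siRNA with IL-17 in the NA libraries alone. The Il11 value for the IMP2 siRNA with IL-17 turned to -0.085 with no title-set term, -0.33 in the NA libraries and -0.0031 by limma-voom, and the Lif difference of responses to -0.021 by limma-voom. The causes were not tested. Leaving out each library in turn gave 9 to 98, 13 to 117 and 198 to 490 genes for IL-17, lowest without siControl+IL-17 replicate 3, siIMP2 replicate 3 and siIMP2 replicate 3. It gave 0 to 2, 0 to 2 and 2 to 3 members there. For the IMP2 siRNA (without IL-17, with it, average) it gave 6 to 7, 6 to 7 and 6 to 8 members. There 3222 to 4690, 3357 to 4804 and 6116 to 6584 genes passed. Members numbered 0 to 2 and 1 to 3 for responses by title set, and 0 to 2, 0 to 2, 1 to 6 and 3 to 5 in reads outside exons. They numbered 1 to 2 for exons against reads outside exons in unstimulated cells. For responses by title set, reads outside exons and exons against them, genes were counted in the main fits only. The member counts of other settings and left-out fits for these tests therefore have no share of all genes beside them. Signs turned in values that did not pass. With IL-17 and the control siRNA Il11 ran from -0.11 to 0.37, Il6st from -0.11 to 0.012, Lifr from -0.061 to 0.19 and Stat3 from -0.10 to 0.010. For the IMP2 siRNA with IL-17 Clcf1 ran from -0.0086 to 0.20 and Il11 from -0.21 to 0.40. The difference of responses ran from -0.90 to 0.10 for Il6 and from -0.40 to 0.34 for Lif. Reads outside exons were few for Socs3, Il6 and Lifr, which limits their precision.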
